A study of Homo sapiens with 47 samples.

Results

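The distal long arm of chromosome 3, from 140 Mb to the chromosome's end at 198295559 (GRCh38), held 374 of the 19535 regions over which the authors counted ChIP reads. Each of these regions overlapped a peak of the authors' H3K4me3Q5ser list. A region belonged to the window when it lay on chromosome 3 and its start was between 140 and 200 Mb. The window was chosen by the input ratio of the DDC line to the empty-vector line, which was low there, so every input value below is a description. The 2 histone marks and the RNA were not used in that choice, although the mark libraries came from the chromatin of the same lines. A gene was assigned to a region when its start lay within 1000 bp of it, which gave 336 genes, and 1054 genes had their start somewhere in the window.

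All cells were PC3, an established human prostate cancer line, transduced with an empty vector (EV), with DDC or with SLC6A4. DDC, an aromatic amino acid decarboxylase, forms serotonin and dopamine. SLC6A4 takes serotonin up through the cell membrane. RNA sequencing and ChIP sequencing of input, H3K4me3 and H3K4me3Q5ser covered 3 libraries of each line, and the input of SLC6A4 cells was not analysed here. CUT&Tag values covered 1 library each of the control, of the SLC6A4 line and of that line with a TGM2 knockdown. The labels name no separate transductions, clones or cultures, so a p-value measures the spread between these libraries, which may be technical, and a line's transgene and its cell population cannot be told apart.

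H3K4me3 marks the starts of active genes. H3K4me3Q5ser is the same trimethylated histone H3 tail with serotonin attached to the neighbouring glutamine, a modification that transglutaminase TGM2 can place. Input is sheared chromatin sequenced without an antibody, and its read density follows the number of DNA copies as well as how well a stretch is sheared, amplified and sequenced. The distal long arm of chromosome 3 carries PIK3CA, SOX2, TERC, PRKCI and ECT2, is gained in many squamous carcinomas, and PC3 is a line with many chromosome rearrangements. In such bulk libraries, a lower signal in each cell and a smaller share of cells with the signal cannot be told apart.

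Depth was 1.39 to 1.83 M (1e6) read pairs in regions for input, 3.43 to 5.81 M for H3K4me3, 13.5 to 24.8 M for H3K4me3Q5ser and 17.3 to 21.7 M reads in genes for RNA. A window region at the median had 46.5 to 72.0 read pairs per input library, 118 to 191 per H3K4me3 library and 256.5 to 602.5 per H3K4me3Q5ser library. ChIP libraries of one group differed little beyond counting noise (chi-square per degree of freedom 0.99 to 1.14, against 2.70 to 13.2 for RNA). In 7 pairs of ChIP libraries of one group the difference could not be told from sampling noise (chi-square p above 0.05). A further fit counted 1 such pair per group, that with the largest p, as 1 sample. It called 250 window regions for H3K4me3Q5ser and 145 for H3K4me3 in DDC cells, against 252 and 148. DDC had 23 to 31 reads per library in DDC cells, and SLC6A4 had 94 to 130 in SLC6A4 cells, against 0 to 1 in EV cells. The prostate antigen KLK3, which PC3 cells are known to lack, had no read in any library. The summed level of 5 epithelial markers (KRT8, KRT18, KRT19, EPCAM, CDH1) was 25333 to 30932 normalised reads in EV cells, 16162 to 19700 in DDC cells and 23518 to 25670 in SLC6A4 cells, and CDH1 had 36 to 64, 2 to 6 and 21 to 28 reads. The 8 markers of other cell types summed to 259 to 273 in EV cells, 76.6 to 105 in DDC cells and 51.2 to 78.1 in SLC6A4 cells, nearly all from PECAM1 and COL1A1, while CD3E and ALB had no read and PTPRC and VWF at most 1 in a library. The part of these differences in the results below was not tested.

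The sequences shown are the 250 bases before the RefSeq start (GRCh38.p14) of the 6 protein-coding genes of the window with the smallest RNA p-values in DDC cells among those whose region also changed in a mark. Each is written 5′ to 3′ on the gene's strand, with capitals for matches, on either strand, to GGGCGG (the GC box of Sp and KLF factors), CCAAT (bound by NF-Y), TATAAA (the TATA box), TGACGTCA (the cAMP response element) and CACGTG (an E-box). No motif contains another.
LXN, chr3:158672649-158672898, minus strand: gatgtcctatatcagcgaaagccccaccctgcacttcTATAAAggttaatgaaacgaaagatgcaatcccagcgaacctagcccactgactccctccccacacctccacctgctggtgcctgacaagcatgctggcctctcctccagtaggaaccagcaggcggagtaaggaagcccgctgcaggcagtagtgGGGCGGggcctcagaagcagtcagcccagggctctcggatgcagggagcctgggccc
SPTSSB, chr3:161371518-161371767, minus strand: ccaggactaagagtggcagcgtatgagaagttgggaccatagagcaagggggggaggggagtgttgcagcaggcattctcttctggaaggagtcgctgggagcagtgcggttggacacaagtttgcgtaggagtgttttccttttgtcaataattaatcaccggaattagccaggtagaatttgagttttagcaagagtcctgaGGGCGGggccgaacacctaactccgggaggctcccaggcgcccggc
TM4SF1, chr3:149377650-149377899, minus strand: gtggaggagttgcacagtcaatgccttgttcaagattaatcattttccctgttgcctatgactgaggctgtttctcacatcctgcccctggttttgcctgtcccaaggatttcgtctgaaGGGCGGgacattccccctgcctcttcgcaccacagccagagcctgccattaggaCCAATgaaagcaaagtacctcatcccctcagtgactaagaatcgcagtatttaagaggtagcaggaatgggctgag
MAP3K13, chr3:185282711-185282960, plus strand: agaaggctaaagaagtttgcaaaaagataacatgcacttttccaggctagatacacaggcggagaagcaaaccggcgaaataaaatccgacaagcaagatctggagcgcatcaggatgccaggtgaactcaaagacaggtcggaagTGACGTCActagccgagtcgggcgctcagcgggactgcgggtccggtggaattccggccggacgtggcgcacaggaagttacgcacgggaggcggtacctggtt
HES1, chr3:194135898-194136147, plus strand: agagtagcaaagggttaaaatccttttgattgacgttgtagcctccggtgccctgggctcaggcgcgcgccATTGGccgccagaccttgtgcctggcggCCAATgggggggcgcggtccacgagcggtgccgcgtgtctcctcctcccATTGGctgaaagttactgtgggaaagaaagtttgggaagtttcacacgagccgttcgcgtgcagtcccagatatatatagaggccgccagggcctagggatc
POLR2H, chr3:184361460-184361709, plus strand: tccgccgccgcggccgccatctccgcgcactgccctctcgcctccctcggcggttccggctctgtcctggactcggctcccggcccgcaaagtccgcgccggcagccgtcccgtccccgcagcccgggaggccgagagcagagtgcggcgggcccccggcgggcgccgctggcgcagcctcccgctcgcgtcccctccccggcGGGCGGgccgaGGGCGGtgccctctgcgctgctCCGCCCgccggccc
The RefSeq starts of LXN, HES1 and POLR2H are those of GENCODE version 44, while those of SPTSSB, TM4SF1 and MAP3K13 differ from it. The LXN promoter held a match to TATAAA, in the part of the 250 bases far from the start, and a GC box. The HES1 promoter held CCAAT or its complement 3 times and no GC box. The POLR2H promoter, 82.0% GC, held 3 GC boxes, and the MAP3K13 promoter held 1 cAMP response element. Among the 161 of 179 protein-coding genes of the window with a RefSeq promoter, 70.8% held GGGCGG, against 42.3% of all 27326 promoters of the same length. CCAAT was in 35.4% against 33.0%, TATAAA in 8.07% against 11.1%, TGACGTCA in 4.97% against 1.76% and CACGTG in 9.94% against 6.50%. The median promoter GC content was 64.4% for these genes and 58.0% for all. The window's genes were taken at regions of the H3K4me3Q5ser list, while all promoters were not. Promoters at such regions elsewhere in the genome were not compared. Of the 47 promoters whose gene was lower in DDC cells, 66.0% held GGGCGG, as did 74.1% of the 85 whose gene was called in no direction.

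The window regions were a little shorter and poorer in GC than the whole set, with a median length of 3243 bp against 4023 bp and a median GC content of 43.99% against 46.84%. Together they covered 1.88 Mb. A gene start lay at 209 of them (55.9%, against 58.5% of all regions), and 258 (69.0%, against 63.7%) overlapped a peak of the authors' H3K4me3 list. They were unevenly spread: from 140 Mb on, successive stretches of 10 Mb held 47, 50, 30, 42, 84 and 121 regions, with median GC contents of 42.2%, 42.6%, 40.3%, 42.7%, 46.9% and 47.1%.

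In the input, the window took 2.436%, 2.462% and 2.454% of region reads in the 3 EV libraries and 2.103%, 2.074% and 2.074% in the 3 DDC libraries. Every DDC library lay below every EV library. Over the 354 regions with enough input reads (20 had too few), the log2 difference of DDC from EV, as fitted by edgeR, had a median of -0.21 and quartiles of -0.38 and -0.08, and 292 lay below 0. At an adjusted p below 0.05, 84 were lower and none was higher (1 at an unadjusted p below 0.05, and none by DESeq2), while 3.61% of all 18025 tested regions were lower and 2.69% higher. These counts follow from how the window was chosen. On chromosome 3 before 140 Mb the median over 678 regions was 0.00, and on chromosome 12 beyond 100 Mb it was 0.26 over 308 regions. The chromosome 12 stretch is not a neutral control, since 72 of its regions were higher in DDC cells and 2 lower. Over the 16685 tested regions of the rest of the genome the median was 0.01.

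The low input was not even along the window. Summed over stretches of 10 Mb, the log2 ratio of DDC to EV was -0.23, -0.29, -0.36, -0.31, -0.20 and -0.15 from 140 Mb to the end, lowest between 160 and 170 Mb, and it was -0.09 between 130 and 140 Mb. In stretches of 2 Mb, it was -0.18 from 140 Mb and -0.06 from 142 Mb, then -0.37 from 146 Mb and -0.40 from 150 Mb, where 12, 15, 6 and 15 regions were summed. The lowest stretch, -0.52 from 174 Mb, held 2 regions. Between 60 and 90 Mb of the same chromosome, outside the window, the ratio was -0.14 to -0.20.

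At the near edge, the last region before the window, at the NMNAT3 start (chr3:139675574-139678010), had an input difference of -0.28 (SE 0.29, edgeR adjusted p = 0.66). The first region inside, at the start of the mitochondrial carrier gene SLC25A36 (chr3:140939972-140946899), had -0.07 (SE 0.14), and the last, chr3:198157226-198161644, had -0.20 (SE 0.13). So the regions at both ends of the window were within the noise of the input libraries. The lowest single value was -1.15 at chr3:196735369-196736303, with 31.4, 16.6 and 23.5 input CPM (read pairs per 1e6 in regions) in EV libraries and 10.2, 9.26 and 13.6 in DDC libraries. The highest was 0.75 (SE 0.30, edgeR adjusted p = 0.11) at the start of the noncoding gene PAQR9-AS1 (chr3:142961002-142962093), with 9.32, 7.65 and 5.45 in EV libraries and 9.68, 14.5 and 14.3 in DDC libraries.

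**Figure D1:**
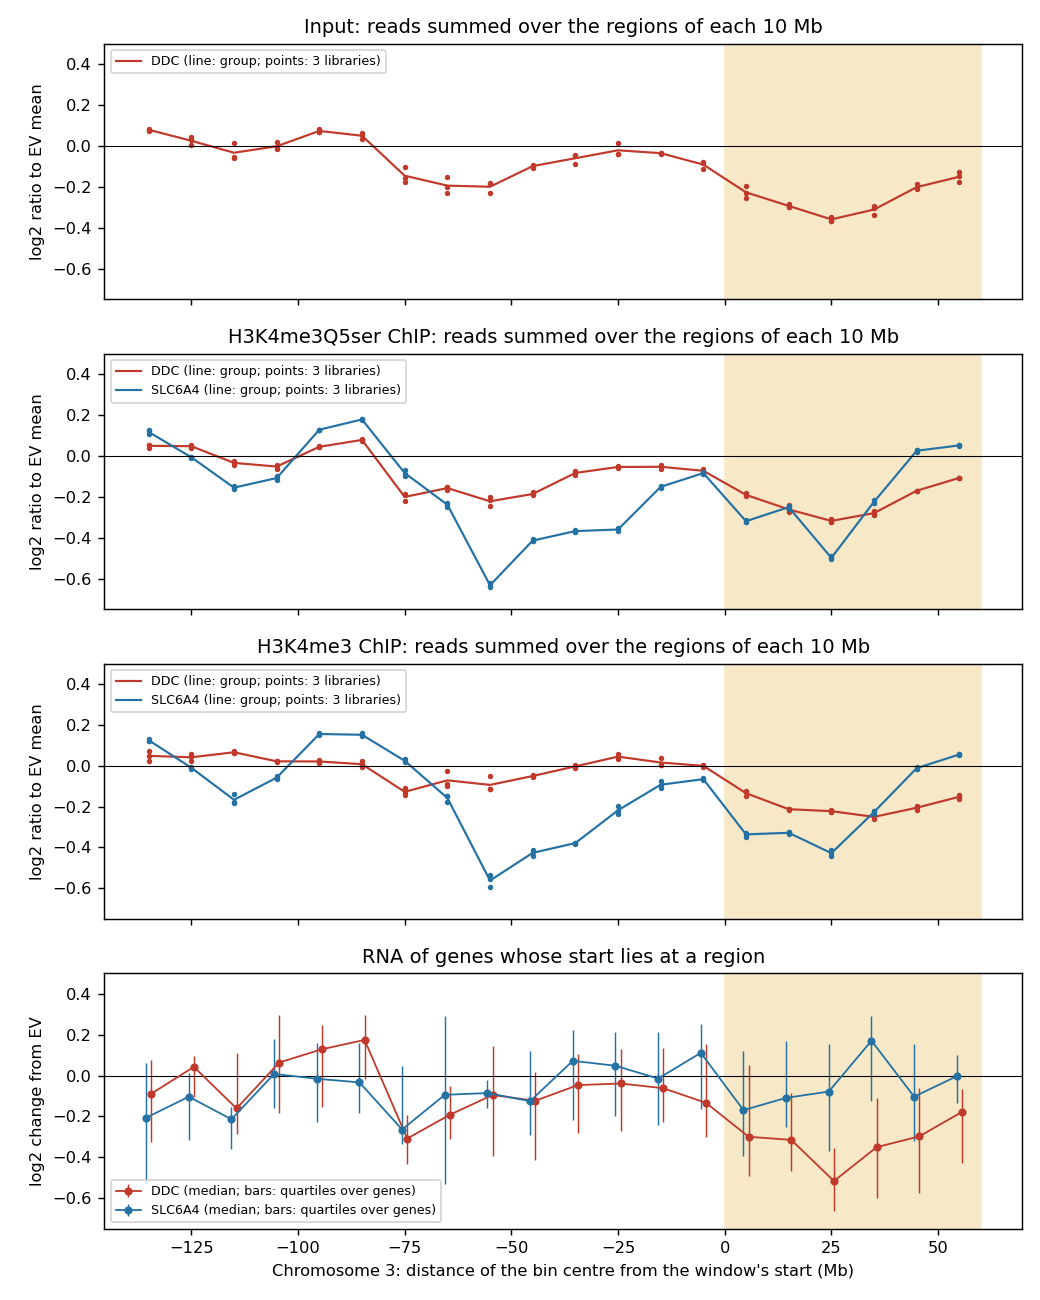
Log2 ratio to the EV mean of input, H3K4me3Q5ser and H3K4me3 reads summed over the regions of each 10 Mb of chromosome 3 (lines for groups, points for the 3 libraries), and median RNA change with quartiles of the genes at those regions, against distance from 140 Mb. The shaded window is low in DDC cells in all 4 panels, with input between -0.36 and -0.15, while in SLC6A4 cells both marks are low only up to 180 Mb and lie between -0.01 and 0.06 beyond it.

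Both marks were lower over the window in DDC cells than in EV cells. The window took 2.38%, 2.39% and 2.38% of the H3K4me3Q5ser reads in EV libraries, 2.08%, 2.06% and 2.07% in DDC libraries and 2.16% in each of the 3 SLC6A4 libraries. For H3K4me3 it took 2.498%, 2.492% and 2.490% in EV, 2.182%, 2.182% and 2.178% in DDC and 2.218%, 2.229% and 2.220% in SLC6A4 libraries. The ratio of the DDC mean to the EV mean was 0.869 for H3K4me3Q5ser and 0.875 for H3K4me3, and that of SLC6A4 to EV was 0.908 and 0.891. In none of these comparisons did the groups overlap, and the exact two-sided permutation test gave p = 0.1 for each (0.1125 after adjustment over 9 comparisons), which is the smallest that 3 libraries against 3 allow.

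Region by region, H3K4me3Q5ser was lower in DDC cells at 233 of the 374 window regions and higher at 19 by edgeR's quasi-likelihood test at an adjusted p below 0.05. Over all regions 31.5% were lower and 29.7% higher. The median log2 difference was -0.20, against -0.02 on chromosome 3 before 140 Mb. H3K4me3 was lower at 146 of 367 regions and higher at 2, against 9.39% lower and 8.24% higher over all regions, with a median of -0.18 against 0.02 before 140 Mb. Of the regions lower in H3K4me3, 136 were also lower in H3K4me3Q5ser, which is 93.2% of the former list and 58.4% of the latter. The 10-Mb sums of both marks lay below 0 along the whole window: H3K4me3Q5ser was at -0.19, -0.26, -0.32, -0.28, -0.17 and -0.11, and H3K4me3 at -0.13, -0.21, -0.22, -0.25, -0.21 and -0.15. The lowest sum was between 160 and 170 Mb in H3K4me3Q5ser, as in input, and between 170 and 180 Mb in H3K4me3.

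The log2 CPM of input was also subtracted from that of each mark, paired by library number, and the difference was tested with limma. That difference reuses the input values that chose the window, so it is given as a description and nothing is read from it. Its median in DDC cells was 0.00 for H3K4me3Q5ser and 0.05 for H3K4me3. By limma, 2 of 354 regions were lower and none higher in H3K4me3Q5ser (47 and 27 at an unadjusted p below 0.05), where 0.47% of all regions were lower and 0.017% higher. None of 348 was called in H3K4me3 (14 lower and 25 higher at an unadjusted p below 0.05), and none of all regions. Across regions of the window, the DDC change in input correlated with that in H3K4me3Q5ser (Pearson r = 0.53, Spearman rho = 0.52, 354 regions) and in H3K4me3 (r = 0.46, rho = 0.45, 352 regions). These values describe regions of the same libraries that share depth and base composition, and over all regions r was 0.46 and 0.41.

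Some regions fell by far more than the window's median. At the start of ARL14 (chr3:160676727-160680149), a small GTPase of vesicle movement, H3K4me3Q5ser was 44.3, 45.5 and 43.7 CPM in EV, 16.3, 15.7 and 15.99 in DDC and 11.8, 11.98 and 11.8 in SLC6A4 libraries. The log2 changes were -1.47 (SE 0.05) and -1.85 (SE 0.05). A region without an assigned gene start, chr3:150369914-150373334, changed by -1.21 (SE 0.04) with DDC and -0.99 (SE 0.03) with SLC6A4 in H3K4me3Q5ser, and by -0.70 and -1.03 (SE 0.06 each) in H3K4me3. In both regions the DDC change in H3K4me3Q5ser was larger than the input change at the same place, which was -0.58 and -0.64.

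At some broad regions the 3 assays changed by like amounts. At TSC22D2 (chr3:150404950-150420653), a transcription regulator gene, input changed by -0.50, H3K4me3Q5ser by -0.36 and H3K4me3 by -0.35 in DDC cells. At IGF2BP2 (chr3:185817887-185831625), which encodes an mRNA-binding protein, the values were -0.56, -0.43 and -0.47. At FNDC3B (chr3:172036960-172046968) they were -0.43, -0.42 and -0.48. Each of these mark changes passed edgeR's test. At other broad regions they differed: at POLR2H and CLCN2 (chr3:184355031-184371370) input was at 0.00, H3K4me3Q5ser at -0.18 and H3K4me3 at -0.35, and at NCBP2 (chr3:196933132-196948873) at -0.09, 0.16 and -0.01.

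Few regions rose. At CHST2 (chr3:143116417-143125804), a sulfotransferase gene, H3K4me3Q5ser was 45.6, 46.6 and 47.0 in EV libraries and 59.8, 59.1 and 59.7 in DDC libraries, a log2 change of 0.36 (SE 0.04, edgeR adjusted p = 9.3e-16) with an input change of 0.12 (SE 0.12). The highest value, 0.47, was at a short region without a gene start (chr3:195945640-195946252). Other rises of H3K4me3Q5ser were at MCF2L2 (0.26), at the pseudogene EGFEM1P (0.20) and at NCBP2 (0.16). The regions with rises in H3K4me3 were CHST2 (0.23) and SLITRK3 (0.26, SE 0.10). Both H3K4me3 calls were lost with DESeq2, and that of SLITRK3 also with an offset for GC content. CHST2 lost its H3K4me3 call without DDC library 2 or EV library 2 or 3, and SLITRK3 without DDC or EV library 1 or 2.

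Regions with an H3K4me3 peak carried most of the H3K4me3Q5ser calls: 211 of 258 were lower in DDC cells, with a median of -0.26, against 22 of 116 and a median of -0.01 for regions without such a peak. Input had medians of -0.24 and -0.14 in the same classes. Regions without a peak were shorter, with a median of 907.5 bp against 6303 bp, and the part of length in the difference was not tested. The same classes were not compared over all regions, so the difference is not shown to be particular to the window. Regions at gene starts and other regions had like medians, -0.20 and -0.22.

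**Figure D2:**
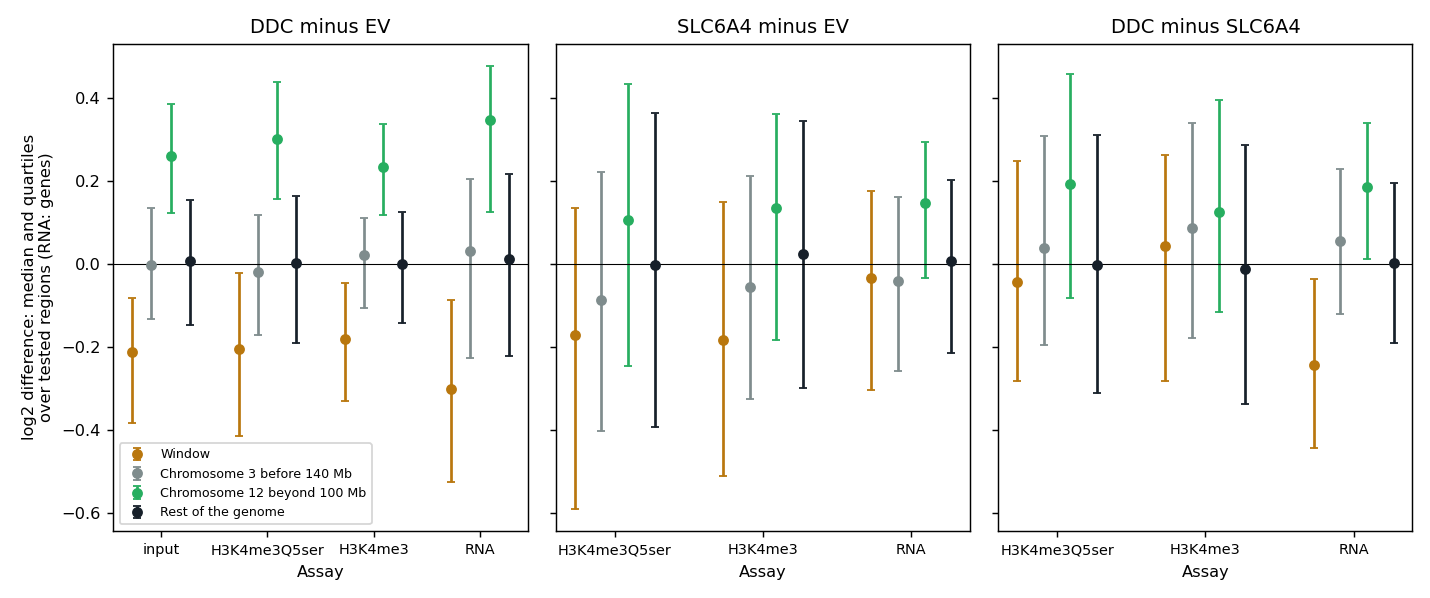
Median and quartiles of the log2 difference over the tested regions (for RNA, genes) of the window, chromosome 3 before 140 Mb, chromosome 12 beyond 100 Mb and the rest of the genome, for each assay and comparison. For DDC minus EV the window's medians of -0.21, -0.20, -0.18 and -0.30 lie below 0 in input, both marks and RNA, and chromosome 12 lies above 0 in each, whereas for SLC6A4 minus EV the window's RNA median is -0.03.

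In SLC6A4 cells the change of the marks over the window varied with GC content. H3K4me3Q5ser was lower than in EV cells at 202 regions and higher at 105, with a median of -0.17, where 41.5% of all regions were lower and 41% higher. H3K4me3 was lower at 178 and higher at 59 of 367, with a median of -0.18, where 29.6% of all were lower and 31.9% higher. Regions were split into 4 GC classes that held equal numbers of all regions. The median H3K4me3Q5ser change of window regions was -0.63, -0.22, 0.13 and 0.48 from the class poorest in GC to the richest, and that of all other regions was -0.58, -0.11, 0.17 and 0.48. Across window regions the change correlated with GC content at r = 0.72 for H3K4me3Q5ser (374 regions, rho = 0.74) and 0.75 for H3K4me3 (367 regions, rho = 0.75), and over all regions at 0.69 and 0.64. The lowest 10-Mb sum of SLC6A4 cells on chromosome 3 was outside the window, between 80 and 90 Mb, where the median GC content was 39.0%: -0.63 in H3K4me3Q5ser and -0.56 in H3K4me3. The lowest in the window, between 160 and 170 Mb, were -0.50 and -0.43.

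With an offset for GC content per library, a choice made after the data were seen, the SLC6A4 medians became -0.03 for both marks. In H3K4me3Q5ser 151 were lower and 122 higher, where 35.9% of all regions were lower and 37.6% higher. In H3K4me3 100 were lower and 60 higher, where 19.2% of all were lower and 21.9% higher. The medians in DDC cells with that offset were -0.18 for both marks (-0.20 and -0.18 without it). In H3K4me3Q5ser 224 were lower and 24 higher, where 29.4% of all regions were lower and 31.4% higher. In H3K4me3 143 were lower and 3 higher, where 7.59% of all were lower and 7.79% higher. In DDC cells the window differed from other regions within each GC class, by -0.22, -0.22, -0.21 and -0.15 in H3K4me3Q5ser, by -0.22, -0.18, -0.20 and -0.10 in H3K4me3 and by -0.22, -0.20, -0.18 and -0.21 in input.

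Set directly against SLC6A4 cells, DDC cells were lower in H3K4me3Q5ser at 157 window regions and higher at 121, with a median of -0.04, where 38.9% of all regions were lower and 38% higher. H3K4me3 was lower at 104 and higher at 114, with a median of 0.04, where 30.9% were lower and 29.3% higher. With the GC offset the split moved to 176 lower and 31 higher (median -0.15) for H3K4me3Q5ser, where 33.1% of all regions were lower and 27.9% higher. For H3K4me3 it moved to 120 lower and 15 higher (median -0.12), where 16.5% of all were lower and 14.3% higher. The direct difference of the marks between the 2 lines therefore depended on how GC content was treated, and its side in H3K4me3 changed.

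**Figure D3:**
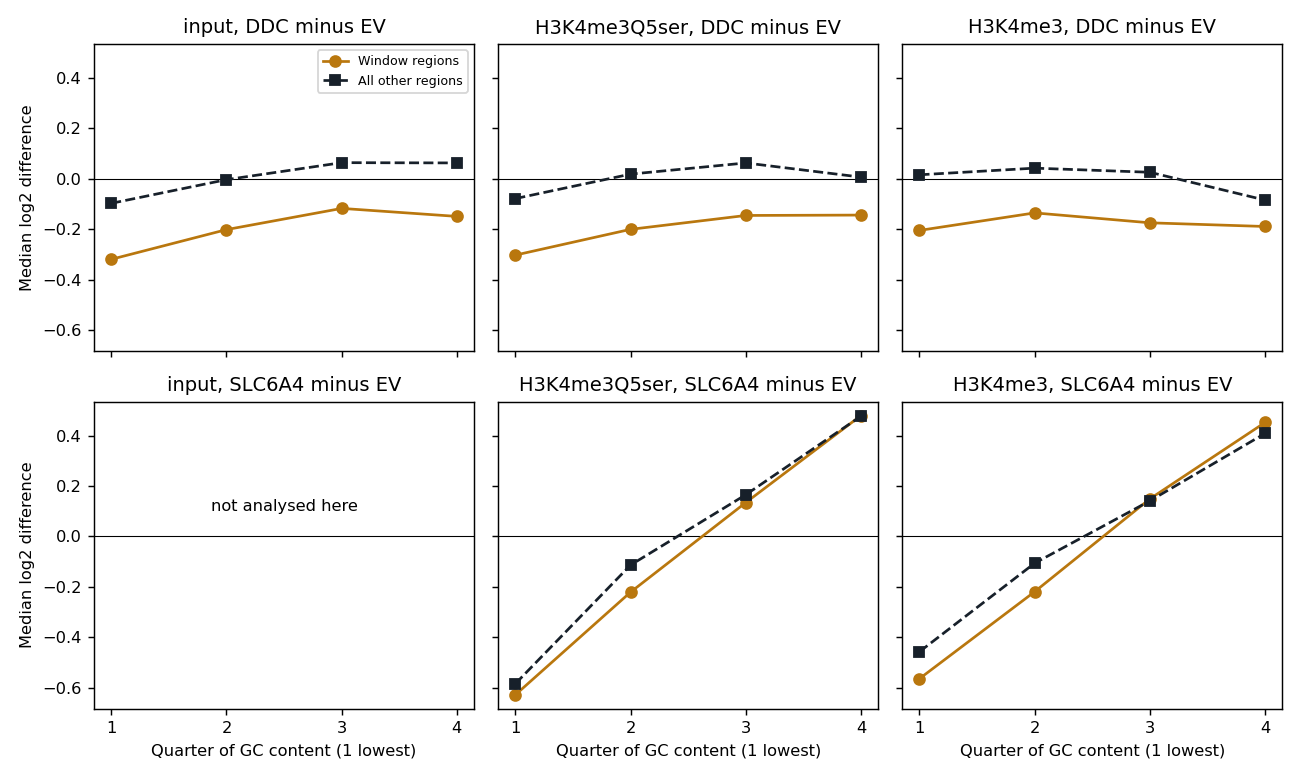
Median log2 difference from EV of window regions and of all other regions in each of 4 classes of GC content, for input, H3K4me3Q5ser and H3K4me3 in DDC cells and for both marks in SLC6A4 cells. The window runs below the other regions in all 4 classes with DDC (by -0.10 to -0.22), and with SLC6A4 in H3K4me3Q5ser both rise together from -0.63 and -0.58 to 0.48 and 0.48.

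The RNA of the window's genes was lower in DDC cells. These genes took 0.367%, 0.376% and 0.378% of RNA reads in EV libraries, 0.284%, 0.284% and 0.273% in DDC libraries and 0.361%, 0.370% and 0.359% in SLC6A4 libraries. Mean shares were 0.373% ± 0.006 (SD, n = 3), 0.281% ± 0.006 and 0.363% ± 0.006, and exact permutation gave p = 0.1 for DDC against EV and p = 0.2 for SLC6A4 against EV (0.1125 and 0.2 adjusted over 9 comparisons). The ratio of DDC to EV was 0.751, or -0.41 on the log2 scale. It was -0.59 without the 5 genes with the most reads (AP2M1, RPL35A, ALG3, PSMD2 and SELENOT). For SLC6A4 against EV it was -0.04 with all genes, -0.15 without these 5 and -0.27 without the top 10.

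Of the 336 genes, 185 had at least 10 normalised reads in at least 3 libraries and could be tested with limma. A gene that reached this level in EV libraries alone, as TNFSF10 did, and IL1RAP for DDC against EV, was tested only because EV was high. Such genes were not counted apart. In DDC cells 58 were lower and none higher at an adjusted p below 0.05, where 8.41% of all 13146 tested genes were lower and 8.94% higher. At an unadjusted p below 0.05, 73 were lower and 3 higher. The median log2 change was -0.30, against 0.03 on chromosome 3 before 140 Mb, and 151 of the 185 lay below 0. In SLC6A4 cells 21 were lower and 18 higher, with a median of -0.03, where 9.28% of all genes were lower and 10.2% higher. With edgeR and library size alone, that split was 25 lower and 14 higher. Between the lines, 44 of 187 were lower in DDC cells and 2 higher (B3GNT5 and NCBP2AS2, neither of them with edgeR and library size alone, and B3GNT5 not with DESeq2), with a median of -0.24, where 6.74% of all genes were lower and 6.47% higher. DESeq2 called 30 of the DDC changes, all lower, and without EV library 1 or EV library 3 the count of 58 became 38 or 37.

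The DDC change ran along the whole window. Median RNA changes in successive stretches of 10 Mb were -0.30, -0.31, -0.52, -0.35, -0.30 and -0.18, with 8 of 24, 9 of 29, 7 of 17, 9 of 25, 17 of 44 and 8 of 46 genes lower. Between 130 and 140 Mb the median was -0.13, with none of 32 genes lower and 2 higher. The 40 tested genes with a start in the window but at no counted region had a median of -0.28, with 9 lower and none higher. Split by level over all tested genes into 3 classes, the window's genes had medians of -0.39, -0.22 and -0.31 from the low to the high class. At regions lower in H3K4me3Q5ser with DDC, the RNA median was -0.35 (47 of 141 genes lower), at regions called in no direction -0.11 (9 of 30), and at regions higher in the mark -0.11 (2 of 14). Across the 185 genes, RNA change correlated with that of H3K4me3Q5ser at r = 0.46 (rho = 0.47), of H3K4me3 at 0.30 (rho = 0.29) and of input at 0.15 (rho = 0.28), as a description of genes in the same libraries.

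**Figure D4:**
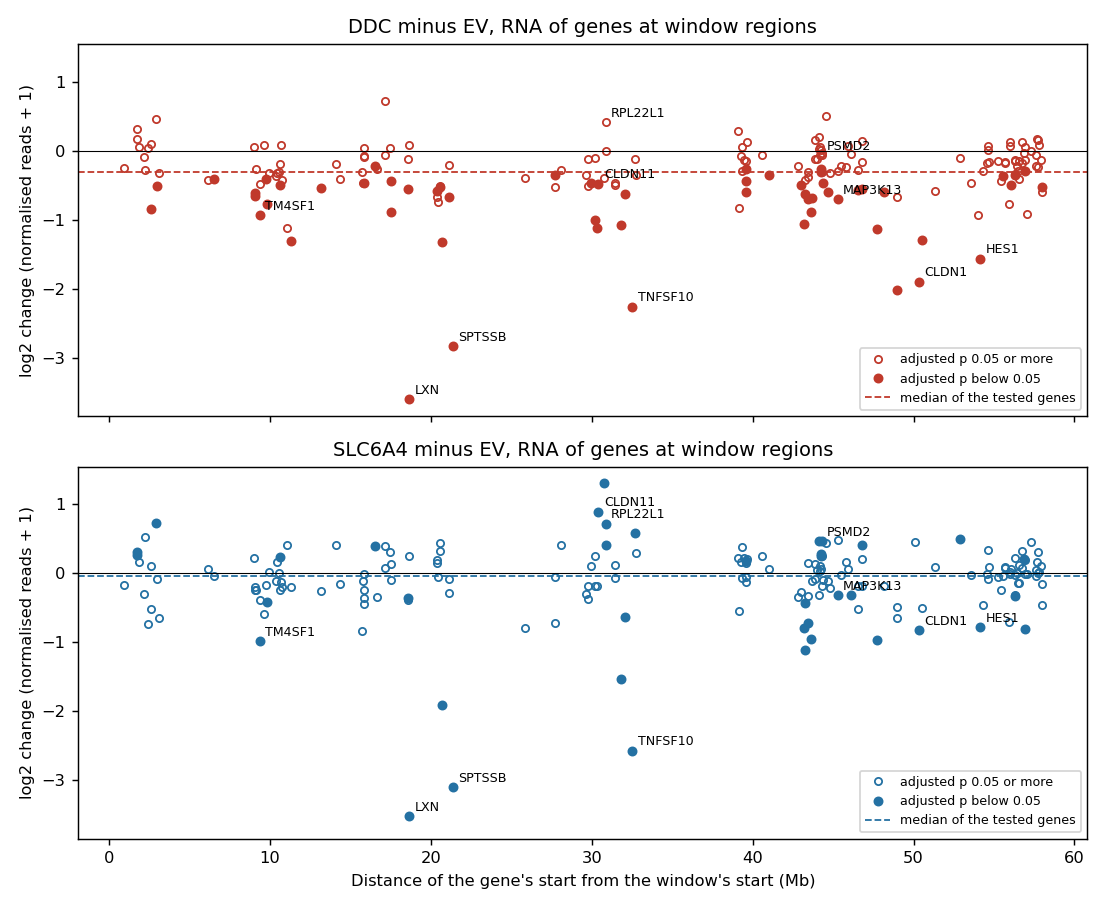
Log2 RNA change of each tested gene at a window region against the distance of its start from 140 Mb, for DDC and for SLC6A4 cells, filled where the limma adjusted p is below 0.05, with the median as a dashed line. The 58 filled points of DDC cells all lie below 0 along the whole window (median -0.30), while the 39 of SLC6A4 cells lie on both sides (median -0.03).

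The genes are grouped below by lists that were chosen with earlier results known, and no list was tested against the other genes of the window. Of all tested window genes, 31.4% were lower and none higher with DDC, 11.4% were lower and 9.73% higher with SLC6A4, and 23.5% were lower when DDC was set against SLC6A4. The all-gene shares are those given with the counts of the whole window. A list's count near these shares says nothing particular of the list.

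Of 11 genes tested in the list of epithelial junction and surface genes, 7 were lower in DDC cells and none higher, with a median of -0.63. In SLC6A4 cells 4 were lower and 1 higher. IL1RAP, 1 of the 7, passed the filter on low values through the EV libraries alone. Its DDC call, which the count includes, is thus a description. Levels per library are reads scaled by size factors shared by all 9 libraries, so that the 3 lines can be read side by side. LXN (chr3:158645822-158672648), which this list also holds although it encodes latexin, a soluble inhibitor of carboxypeptidases, lies inside GFM1 on the other strand. It had 3411, 3661 and 3900 normalised reads in EV libraries, 318, 297 and 284 in DDC libraries and 327, 316 and 312 in SLC6A4 libraries. Both lines stood far below EV and overlapped each other. The log2 changes were -3.60 (SE 0.08, limma adjusted p = 1.4e-19) and -3.52 (SE 0.07), while H3K4me3Q5ser at its region (chr3:158668342-158672875) changed by -0.59 and -1.12 and input by -0.08.

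TM4SF1, a tetraspanin-like surface protein, had 2068, 2165 and 2133 in EV, 1149, 1033 and 1146 in DDC and 1008, 1066 and 1154 in SLC6A4 libraries, log2 changes of -0.93 and -0.98 (SE 0.08 and 0.06). CLDN1, a claudin of tight junctions, had 64.8, 34.8 and 32.0 in EV, 13.5, 4.40 and 17.9 in DDC and 18.6, 23.6 and 27.9 in SLC6A4 libraries, log2 changes of -1.90 (SE 0.37) and -0.83 (SE 0.26). TFRC, the transferrin receptor, fell by 0.49 on the log2 scale with DDC and was at 0.06 with SLC6A4, and B3GNT5, a glycosyltransferase of lacto-series lipids, fell by 0.63 and by 1.11. The SLC6A4 call of CLDN1 was lost with DESeq2 and without EV library 1 or SLC6A4 library 1 or 2.

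CLDN11, a claudin of parallel-strand tight junctions, had 1769, 1563 and 2056 normalised reads in EV libraries, 1311, 999 and 1603 in DDC libraries and 2897, 3685 and 3400 in SLC6A4 libraries. SLC6A4 libraries lay above all EV libraries, while DDC and EV libraries overlapped. The log2 change was -0.47 (SE 0.12, limma adjusted p = 0.0083) with DDC and 0.89 (SE 0.09) with SLC6A4, and the direct difference was -1.37 (SE 0.12). The DDC call was lost with DESeq2 and without DDC library 2.

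Among genes that sit in the 3q26 to 3q28 stretch gained in squamous carcinomas, 9 of 22 tested were lower in DDC cells and none higher, with a median of -0.43, and with SLC6A4 6 were lower and 1 higher. MAP3K13, a kinase upstream of JNK also known as LZK, had 2082, 2026 and 1899 in EV, 1258, 1135 and 1284 in DDC and 1652, 1529 and 1637 in SLC6A4 libraries. The 3 groups did not overlap, and the changes were -0.70 (SE 0.08) and -0.32 (SE 0.06). BCL6, a transcriptional repressor, changed by -1.13 and -0.97, and PLD1, phospholipase D1, by -1.07 and -1.54, its DDC call being lost without EV library 1. PRKCI, an atypical protein kinase C, fell by 1.01 on the log2 scale with DDC (limma adjusted p = 0.0085) and had -0.19 with SLC6A4 (limma adjusted p = 0.61); DESeq2 did not call the former (adjusted p = 0.094). PIK3CA, the catalytic subunit of PI3-kinase alpha, had means of 15.4, 7.32 and 8.86 normalised reads and passed in neither line. SOX2 and TERC had too few reads to be tested.

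Transcription and chromatin factors had 4 of 13 lower with DDC and 3 with SLC6A4, none higher in either. HES1, the repressor that acts downstream of Notch, had 76.1, 101.3 and 68.3 in EV, 31.2, 25.3 and 23.9 in DDC and 43.7, 46.3 and 49.8 in SLC6A4 libraries. The 3 groups were apart, with changes of -1.56 (SE 0.20) and -0.78 (SE 0.17) from EV and -0.78 (SE 0.19) between the lines. At its region (chr3:194134398-194141391, 54.9% GC) H3K4me3Q5ser changed by -0.42 with DDC and 0.14 with SLC6A4, and input by 0.02 with DDC. YEATS2, a reader of acylated histones, changed by -0.69 with DDC, and SKIL, a co-repressor of SMAD signalling, by -1.12, while neither passed with SLC6A4. SKIL lost its call with DESeq2 and without DDC library 3 or EV library 2 or 3, and the differences of HES1 and YEATS2 between the lines were lost with DESeq2. MED12L, a Mediator subunit, had means of 11.5, 4.82 and 15.8 normalised reads. Its difference from EV was -1.12 with DDC, which did not pass (limma adjusted p = 0.063), and DDC cells were below SLC6A4 cells by -1.54 (limma adjusted p = 0.0046).

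Of 15 genes of translation tested, 6 were lower and none higher with DDC, none lower and 5 higher with SLC6A4, and 8 were lower when DDC was set against SLC6A4. SSR3, a subunit of the translocon-associated protein complex, had 1552, 1451 and 1560 in EV, 1323, 1257 and 1313 in DDC and 1852, 2068 and 2104 in SLC6A4 libraries, changes of -0.22 (limma adjusted p = 0.0497) and 0.40 and a direct difference of -0.63 (SE 0.07). Its DDC call was lost with DESeq2, with the replicate block, with a pseudocount of 0.5, without the filter on low values and without any 1 of 5 libraries (all but DDC library 3). SEC62, a protein of the translocation channel, changed by -0.47 with DDC, EIF4A2, an RNA helicase of initiation, by -0.55, and NMD3, which exports the large ribosomal subunit, by -0.66. With SLC6A4, EIF2B5, a subunit of the exchange factor of eIF2, rose by 0.47, EIF5A2 by 0.41 and the ribosomal protein-like RPL22L1 by 0.72, and none of these passed with DDC. The rises of EIF5A2 and RPL22L1 were lost with DESeq2 and without EV library 1 or SLC6A4 library 1 or 2, that of EIF5A2 also without EV library 3 and that of RPL22L1 without EV library 2.

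Among genes of DNA replication, repair and mitosis, 5 of 16 were lower and none higher with DDC, with SLC6A4 none was lower and 2 were higher, and 8 were lower when DDC was set against SLC6A4. POLR2H, which this list also holds, is a subunit shared by the nuclear RNA polymerases. It had 2203, 2195 and 2235 in EV, 1521, 1628 and 1631 in DDC and 1881, 2196 and 2154 in SLC6A4 libraries, a DDC change of -0.47 (SE 0.08). GMPS, which makes GMP, changed by -0.47 with DDC, SMC4, a condensin subunit, by -0.58, and the importin KPNA4 by -0.53. SMC4 and KPNA4 lost these calls with DESeq2 and without DDC library 3, and KPNA4 also without DDC library 2 or EV library 2 or 3. RFC4, a subunit of the clamp loader, rose by 0.41 with SLC6A4 and was at -0.16 with DDC (limma adjusted p = 0.32).

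Secreted and immune genes had 3 of 7 lower with DDC and 2 with SLC6A4, none higher. TNFSF10, the death ligand TRAIL, had 13.4, 23.96 and 11.2 in EV, 5.19, 1.10 and 1.99 in DDC and 4.65, 0.91 and 1.00 in SLC6A4 libraries, at 48, 8 and 7 reads in all. TNFSF10 passed the filter on low values through the EV libraries alone. It was thus tested only because EV was high, and its calls, which the counts of this list include, are a description. LAMP3, a lysosomal membrane protein, changed by -1.07 and -0.80, and PLSCR1, a scramblase induced by interferon, by -0.42 with DDC. DESeq2 called neither gene, PLSCR1 also lost its call without DDC library 2 or EV library 1 or 3, and LAMP3 lost that with SLC6A4 without EV library 1 or 2 or SLC6A4 library 1. In metabolism, mitochondria and transport, 1 of 17 was lower with DDC, NDUFB5 of respiratory complex I, at -0.60 (409.4, 392.04 and 406.1 in EV, 261, 272 and 263 in DDC and 380, 364 and 364 in SLC6A4 libraries), and PSMD2, a proteasome subunit, rose with SLC6A4 by 0.46. Of 8 neural and neuroendocrine genes 3 could be tested. SPTSSB, a subunit of serine palmitoyltransferase, had 512, 549 and 570 in EV, 75.8, 69.3 and 80.6 in DDC and 53.0, 69.9 and 65.8 in SLC6A4 libraries, changes of -2.83 and -3.10 (SE 0.11 each).

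The RNA of ARL14, the vesicle GTPase whose start lost H3K4me3Q5ser in both lines, was lower in both lines, by -1.32 (SE 0.32) and -1.91 (SE 0.33), the former not with DESeq2.

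**Figure D5:**
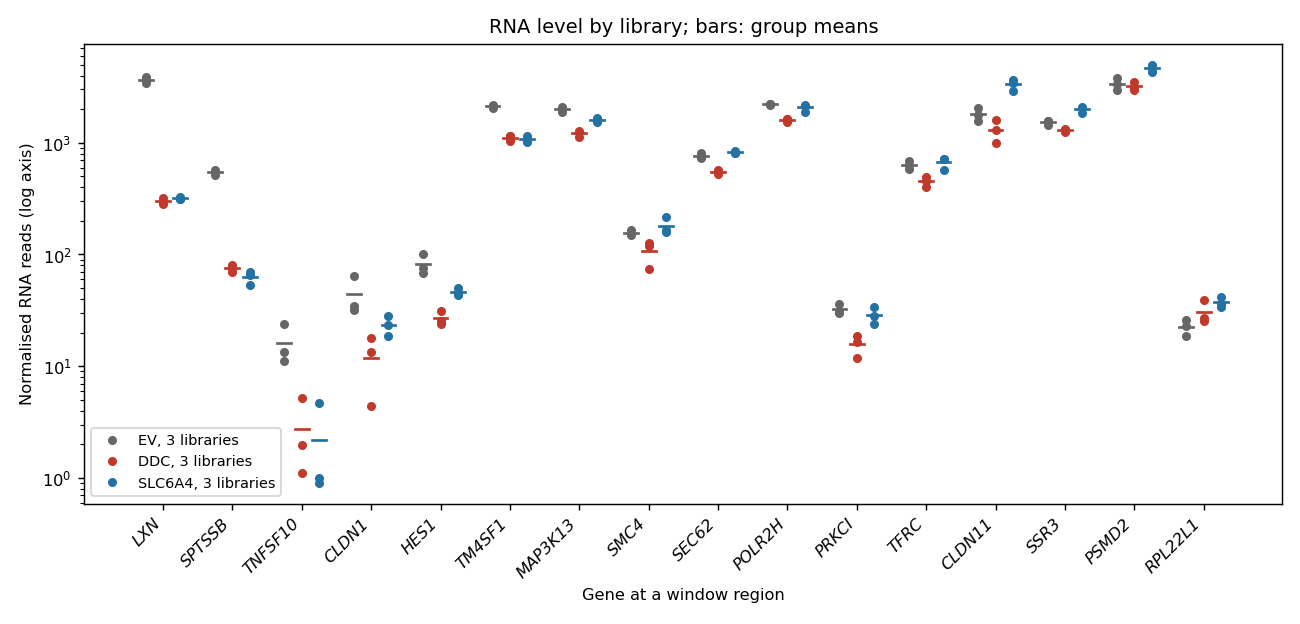
Normalised RNA reads (log axis) in each of the 9 libraries for 16 genes at window regions, with bars for group means; reads are not scaled for gene length, so heights compare lines, not genes. LXN stands at 3411 to 3900 in EV and at 284 to 327 in both other lines, MAP3K13 steps from EV through SLC6A4 to DDC, and CLDN11 is highest in SLC6A4 libraries.

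Side by side, 18 genes were called lower in both lines, among them LXN, SPTSSB, TM4SF1, HES1, BCL6, FNDC3B, CLDN1, KLHL24 and RNF13. FNDC3B lost its DDC call without DDC library 2 or EV library 3, KLHL24 both calls and RNF13 that with SLC6A4 with DESeq2. Another 35 were called lower with DDC and in no direction with SLC6A4, and 21 of these also passed as lower than in the SLC6A4 line. The 5 genes lower with DDC and higher with SLC6A4 were CLDN11, SSR3, MRPL47, EEF1AKMT4 and its readthrough EEF1AKMT4-ECE2. With DESeq2 each of the 5 lost at least 1 of its 2 calls (MRPL47 the rise, EEF1AKMT4-ECE2 both, the others the fall), and SSR3, EEF1AKMT4 and MRPL47 lost 1 with the replicate block. With SLC6A4 alone, 13 were called higher and 3 lower (ETV5, NCBP2AS2 and RNA5SP151), of which ETV5 lost its call with DESeq2 and with the replicate block. Both comparisons share the EV libraries, so these groups are not independent. The same patterns were not counted over all tested genes, so these counts show nothing particular to the window. Overlapping genes (EEF1AKMT4 and EEF1AKMT4-ECE2, HLTF and HLTF-AS1, NCBP2 with its antisense genes, LXN within GFM1) and the pseudogene KRT8P12 may share reads, since the strand setting of the RNA counting is not given in the sources used here.

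In the CUT&Tag data the medians of window peaks and of other peaks differed by less than 0.05. The deposited values covered 279 window peaks from the authors' table of peaks not called up, where the log2 ratio of SLC6A4 to control cells had a median of 0.08 against 0.10 for the 13603 other peaks, and TGM2 knockdown to SLC6A4 had -0.10 against -0.08. Each condition was 1 library, with no replicate check. Among these peaks, which were not called up, the ratio of SLC6A4 to control reached at most 0.32 in both sets. Larger rises are thus absent from both medians, which limits how far they could differ. Of the authors' peaks called up, 40 of 2163 started between 140 and 200 Mb of chromosome 3. Of the window regions, 35 overlapped a peak called up (9.36%, against 9.91% of all regions).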

How the data were processed

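ChIP values were estimated counts: the authors counted read pairs per region with featureCounts 2.0.3, per the file headers, sharing a pair between regions, so 9.78% of the values were not whole and all were rounded here. RNA values were a signal that the authors made by dividing reads per gene by DESeq2 size factors, in a separate table for each line against EV, as deposited; 100% of the values came out as whole reads (tolerance 1e-06). CUT&Tag values were CPM per peak, as deposited by the authors. The submitters' processing notes name HISAT2 2.1.0, Bowtie2, DESeq2, FastQC, HOMER and MACS2, with no steps given. Coordinates are GRCh38, and gene starts are those of GENCODE version 44, which matched 62625 of 62703 gene identifiers.

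Counts were tested with edgeR 4.0.16 (quasi-likelihood F-test, TMM, filterByExpr), the 9 libraries of a mark sharing one spread. RNA was tested with limma 3.58.1 on log2(value + 1) for genes at 10 or more in 3 or more libraries, and DDC against SLC6A4 on recovered reads with shared size factors. A fold change on that scale understates the change of low genes. P-values were adjusted by Benjamini-Hochberg over all regions or genes, and 0.05 was the threshold. DESeq2 1.42.0, other scalings and filters, a replicate block and leaving out each library were alternatives, and the GC offset and the pooling of libraries within counting noise were chosen after seeing the data. Each tool was tested on simulated data. Intervals and errors cover these libraries only.

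The members, gene lists and markers were chosen with earlier results of these data known. Named by rule were up to 4 called regions per direction and mark comparison, the 3 lowest and 3 highest in input, the regions at the window's edges, up to 8 called genes per direction and RNA comparison whose groups did not overlap, up to 3 called genes per list, the genes at named regions and 6 promoters. AP2M1, RPL35A, ALG3, PSMD2 and SELENOT were named for their read number. PIK3CA, PRKCI, SKIL, SOX2, TERC, KLHL24, RNF13, IL1RAP and RNA5SP151 were named after their values were seen. The design also foresaw SLC6A4 input, which was not analysed here, so input covers EV and DDC. The labels number the libraries of each group and do not say that a number marks a shared culture. Some items are not reported here.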

Additional observations from a re-analysis of the deposited data

Results flagged for a closer look

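The results here drew attention because DDC and SLC6A4 cells moved in opposite directions from EV and the direct difference passed its test. Both comparisons share the EV libraries. In RNA, the log2 difference of DDC from SLC6A4 cells was -1.37 for CLDN11, -0.63 for SSR3, -0.44 for MRPL47, a mitochondrial ribosomal protein, -0.51 for the methyltransferase gene EEF1AKMT4 and -0.58 for its readthrough EEF1AKMT4-ECE2. The last pair share exons and may share reads, and EV and DDC libraries of CLDN11 overlapped. The opposite directions from EV did not hold for any of the 5 with DESeq2, which lost the fall with DDC (CLDN11, SSR3, EEF1AKMT4), the rise with SLC6A4 (MRPL47) or both (EEF1AKMT4-ECE2). The direct differences kept their calls under all 13 RNA alternatives run.

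In H3K4me3Q5ser the difference was -0.62 at the start of POLR2H and CLCN2 (chr3:184355031-184371370), -0.52 at ALG3 and EEF1AKMT4 (chr3:184241782-184259736), -0.42 at EIF4G1 and PSMD2 (chr3:184293931-184320711) and -0.51 at ST6GAL1 (chr3:186929400-186933140). In H3K4me3 it was -0.56, -0.53 and -0.39 at the first 3 of these, -0.69 at a region without a gene start (chr3:197652507-197665711) and -0.94 at PIGZ (chr3:196960807-196972170). With the GC offset the H3K4me3Q5ser values became -0.29, -0.35, -0.26 and -0.11, the last of which no longer passed (edgeR adjusted p = 0.10 at ST6GAL1). The H3K4me3 values became -0.22, -0.35, -0.24, -0.25 and -0.61, and each still passed. Opposite calls from EV were then left at 1 of the 5 H3K4me3 regions, ALG3. SLC6A4 against EV was -0.10 at POLR2H (edgeR adjusted p = 0.078) and 0.0031 at EIF4G1 (edgeR adjusted p = 0.96), and DDC against EV was -0.10 at chr3:197652507-197665711 (edgeR adjusted p = 0.23) and -0.21 at PIGZ (edgeR adjusted p = 0.069). In H3K4me3Q5ser they were left at 3 of 4, all but ST6GAL1, where SLC6A4 against EV was -0.061. Apart from GC content, the DDC calls at PIGZ and chr3:197652507-197665711 in H3K4me3 and at ST6GAL1 in H3K4me3Q5ser were lost with DESeq2. PIGZ also lost its call without DDC library 2 or 3 or EV library 1, and chr3:197652507-197665711 without DDC or EV library 1. ST6GAL1 lost its call without DDC library 2 or 3 or EV library 2 or 3.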

How the results depend on the processing

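Counts of window members called kept within 1.5 times of the reported ones and medians kept their sign under the alternatives run, except as follows. DESeq2 called 35 input regions and, in RNA, 30 genes with DDC and 22 with SLC6A4. The mark set against input left 2 regions called for H3K4me3Q5ser and 0 for H3K4me3 with DDC by limma. Its median was 0.0039 for H3K4me3Q5ser and 0.048 for H3K4me3, and input is the shallowest assay. For DDC against SLC6A4, the GC offset gave 135 calls and a median of -0.117 in H3K4me3, and library size without TMM gave a median of 0.0084 in H3K4me3Q5ser. Leaving out 1 library gave 37 to 51 RNA calls with DDC, the fewest without EV library 3 (37) and EV library 1 (38). For RNA, library size alone moved the median of all genes by -0.12 and gave 72 lower window genes and none higher. edgeR on recovered reads called 64 window genes with DDC, all lower, 39 with SLC6A4 and 46 between the lines. A like count did not always mean the same calls. With the GC offset, H3K4me3Q5ser kept 234 of 252 calls in the same direction for DDC against EV, 184 of 307 for SLC6A4 against EV and 126 of 278 between the lines. H3K4me3 kept 133 of 148, 116 of 237 and 65 of 218.

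Under the GC offset these single regions changed sign. H3K4me3Q5ser of SLC6A4 against EV became 0.256 at TSC22D2 and -0.061 at ST6GAL1, and H3K4me3 became -0.101 at POLR2H and 0.046 at chr3:142025106-142030000. H3K4me3Q5ser of DDC against SLC6A4 became -0.018 at ARL14, -0.135 at PDCD10, -0.235 at chr3:169141853-169151660, -0.148 at chr3:142025106-142030000, -0.055 at PLSCR1, -0.210 at MBNL1-AS1, 0.063 at chr3:192409152-192410289 and -0.108 at SLC25A36. H3K4me3 of the same comparison became -0.193 at chr3:150369914-150373334, -0.075 at TSC22D2, -0.048 at EGFEM1P, -0.130 at PDCD10, -0.140 at chr3:169141853-169151660 and -0.121 at chr3:142025106-142030000. The cause was not tested.

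Library numbers did not pair the samples: deviations of same-numbered libraries correlated at -0.11 to 0.03. With the replicate block the calls were 90 in input, 252, 307 and 278 in H3K4me3Q5ser (DDC against EV, SLC6A4 against EV and DDC against SLC6A4), 146, 239 and 218 in H3K4me3 and 59, 34 and 46 in RNA.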
